A study of Homo sapiens with 6 samples.

Results

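The genes described here are 10 components of the machinery that takes a cell through the G1 phase: the D-type cyclins CCND1, CCND2 and CCND3, the E-type cyclins CCNE1 and CCNE2, the kinases CDK2, CDK4 and CDK6, and the inhibitors CDKN1B (p27) and CDKN2A (p16 and p14ARF). They were chosen by name, and all 10 were found by their symbols among the 58037 gene IDs counted. Their mRNA was measured in OVCAR8 cells, a long-established line from a human ovarian carcinoma, with and without relaxin-2 (RLN2), a peptide hormone of the insulin superfamily. Both groups began as wells of 300000 cells grown for 24 hours with 10% serum and then held without serum for 16 hours. One group was then left untreated (3 libraries, whose replicate numbers are 2 to 4), and the other received 50 ng/mL of recombinant human relaxin-2 for 8 hours (3 libraries, replicates 1 to 3). The labels speak of triplicates but name no separate cultures, so the p-values below reflect only how much these samples vary, possibly for technical reasons, and no library taken before or without serum withdrawal is part of the comparison.

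Passage through G1 is set by cyclins, which activate their kinase partners, and by inhibitors, which hold those kinases back. D-type cyclins are made in response to growth signals and pair with CDK4 or CDK6 to begin phosphorylating the retinoblastoma protein, which releases E2F transcription factors. E-type cyclins, themselves E2F targets, then pair with CDK2 to complete that phosphorylation and start DNA replication. p27 binds cyclin E-CDK2 and accumulates when serum is withdrawn, mostly through protein stability, while p16 binds CDK4 and CDK6 directly. Loss of p16, gain of cyclin E1 and altered cyclin D1 are familiar lesions in ovarian carcinoma, and the levels below are of mRNA, not of protein or kinase activity.

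Promoter sequence was on hand for 6 of the 10 genes, with 10 transcription starts among them (RefSeq, GRCh38.p14). No promoter was on hand for CCND1, CCND2, CCNE2 or CDK2. The 250 bases upstream of each start were searched on both strands for the cAMP response element TGACGTCA, its shorter core TGACG (which lies within the full element), the E2F site written as TTTCGCGC, TTTGGCGC, TTTCCCGC or TTTGCCGC, and the GC box GGGCGG. The windows shown belong to CDKN2A, the gene with the smallest p below, CCND3, the gene with the largest fitted difference, and CDK6, which has the only TGACG match. Each runs 5′ to 3′ on the gene's own strand, which is the minus strand in all 4, with GC boxes and TGACG cores in capitals.
CDKN2A, chr9:21995325-21995574: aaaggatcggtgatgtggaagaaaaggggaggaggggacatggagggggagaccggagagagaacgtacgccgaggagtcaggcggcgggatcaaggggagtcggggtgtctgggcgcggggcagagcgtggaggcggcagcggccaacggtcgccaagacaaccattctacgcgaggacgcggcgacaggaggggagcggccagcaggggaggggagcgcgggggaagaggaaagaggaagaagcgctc
CCND3, chr6:41939206-41939455: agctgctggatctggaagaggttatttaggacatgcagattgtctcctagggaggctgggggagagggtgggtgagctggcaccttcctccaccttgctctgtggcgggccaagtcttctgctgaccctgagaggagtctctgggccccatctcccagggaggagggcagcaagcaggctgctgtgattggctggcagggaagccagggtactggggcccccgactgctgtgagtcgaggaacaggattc
CDK6 upstream start, chr7:92836574-92836823: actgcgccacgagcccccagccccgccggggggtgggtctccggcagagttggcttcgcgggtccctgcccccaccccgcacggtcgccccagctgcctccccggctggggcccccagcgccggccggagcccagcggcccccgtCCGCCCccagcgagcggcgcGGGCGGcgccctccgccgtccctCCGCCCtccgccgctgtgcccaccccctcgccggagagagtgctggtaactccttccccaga
CDK6 downstream start, chr7:92833960-92834209: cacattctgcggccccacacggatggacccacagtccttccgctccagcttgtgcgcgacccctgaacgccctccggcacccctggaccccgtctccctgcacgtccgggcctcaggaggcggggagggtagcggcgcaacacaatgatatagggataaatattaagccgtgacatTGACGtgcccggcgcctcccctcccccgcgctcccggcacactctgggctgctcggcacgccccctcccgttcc

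The full cAMP element and the E2F words had 0 matches in the 10 windows, against 1.65% and 2.79% of all 35116 promoter windows of this length. The TGACG core was found upstream of the downstream CDK6 start, and 21.2% of all windows hold it. GC boxes, found in 42.6% of all windows, were in 7 of the 10. CCNE1 had 7 of them and the upstream CDK6 start 3, whereas the CDKN2A window shown, which lies at the start of the p14ARF transcript, had 0. CCND3 has 3 starts, whose windows held 0, 2 and 5 GC boxes, and the one with 0 is shown because the other windows overlap annotated exons by more than 30 bases. These are matches of letters in short windows and are given as a description. CDKN2A has a second start at the p16 transcript, and the counts add the transcripts of both, so p16 and p14ARF cannot be told apart here.

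Values in CPM are counts scaled to a common library size by edgeR's TMM factors. Libraries held 11939148 to 22426768 reads assigned to genes. Relaxin-2 replicate 2 stood apart by its share of multimapping reads, 26.96% against at most 6.19% in the other 5 libraries. Untreated replicate 2 stood apart by transcript composition: genes whose transcripts averaged a GC content of 60% or more had a median log2 deviation of -0.80 from their mean over all libraries, and genes under 40% GC had 0.23. Of the epithelial and ovarian carcinoma markers, 6 of 7 were expressed, with KRT8 at 705 ± 221 CPM (SD, n = 3), PAX8 at 53.2 ± 12.4 CPM and EPCAM at 31.2 ± 4.42 CPM in untreated cells, while MUC16 had 4 reads in all. The 3 leukocyte markers summed to at most 0.174 CPM in any library, the 3 endothelial markers to 0.990 to 1.44 CPM untreated and 1.39 to 2.27 CPM after relaxin-2, and the 3 fibroblast markers to 10.4 to 17.8 and 17.6 to 18.6 CPM, with DCN and CD3E at 0. The 3 mesothelial markers, led by MSLN, summed to 9.18 to 29.8 CPM untreated and 29.8 to 44.3 CPM after relaxin-2. These markers' part in the results was not tested.

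After 8 hours of relaxin-2 none of these genes passed the test for a difference. Of the 10, 9 had enough reads to be tested, and 0 of the 9 reached an adjusted p under 0.05 (edgeR quasi-likelihood test, Benjamini-Hochberg adjusted over 16740 genes), as was the case for 0% of all genes tested. DESeq2 and limma-voom also called 0 genes, and 1811 genes had an unadjusted p under 0.05 in edgeR, 1677 in DESeq2 and 2058 in limma-voom. An unadjusted p under 0.05 was reached by 1 of the 9, CDKN2A, against 10.8% of all genes. The fitted difference was above 0 in 4 of them and below 0 in 5, with a median log2 fold change of -0.03, beside -0.01 over all genes tested. With low-count genes kept in, edgeR called 0.37% of 32407 genes, and 0 of these 10.

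The precision of these measurements sets bounds on the differences, but the bounds depend on the fit. In the fit as described, the 95% interval of the fold change lay within 1.5-fold in either direction for 8 of the 9 genes, all but CCND3, against 52.9% of all genes tested and 87.1% of the 5993 more abundant genes (mean log2 CPM at or above 5). Counting error was small beside this: the lowest count of these 9 genes in any library was 352 reads, for CCND3, which gives a counting coefficient of variation of 5.33%. With each library's trend on transcript GC content and length removed, 7 of the 9 intervals lay within 1.5-fold. Those of CCND1 (-0.78 to -0.02) and CDKN2A (-0.63 to 0.08) did not. The share over all genes was not worked out for that fit. Its median SE over all genes tested was 0.106, against 0.157 without the offsets, so the shares above cannot stand in for it.

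**Figure D1:**
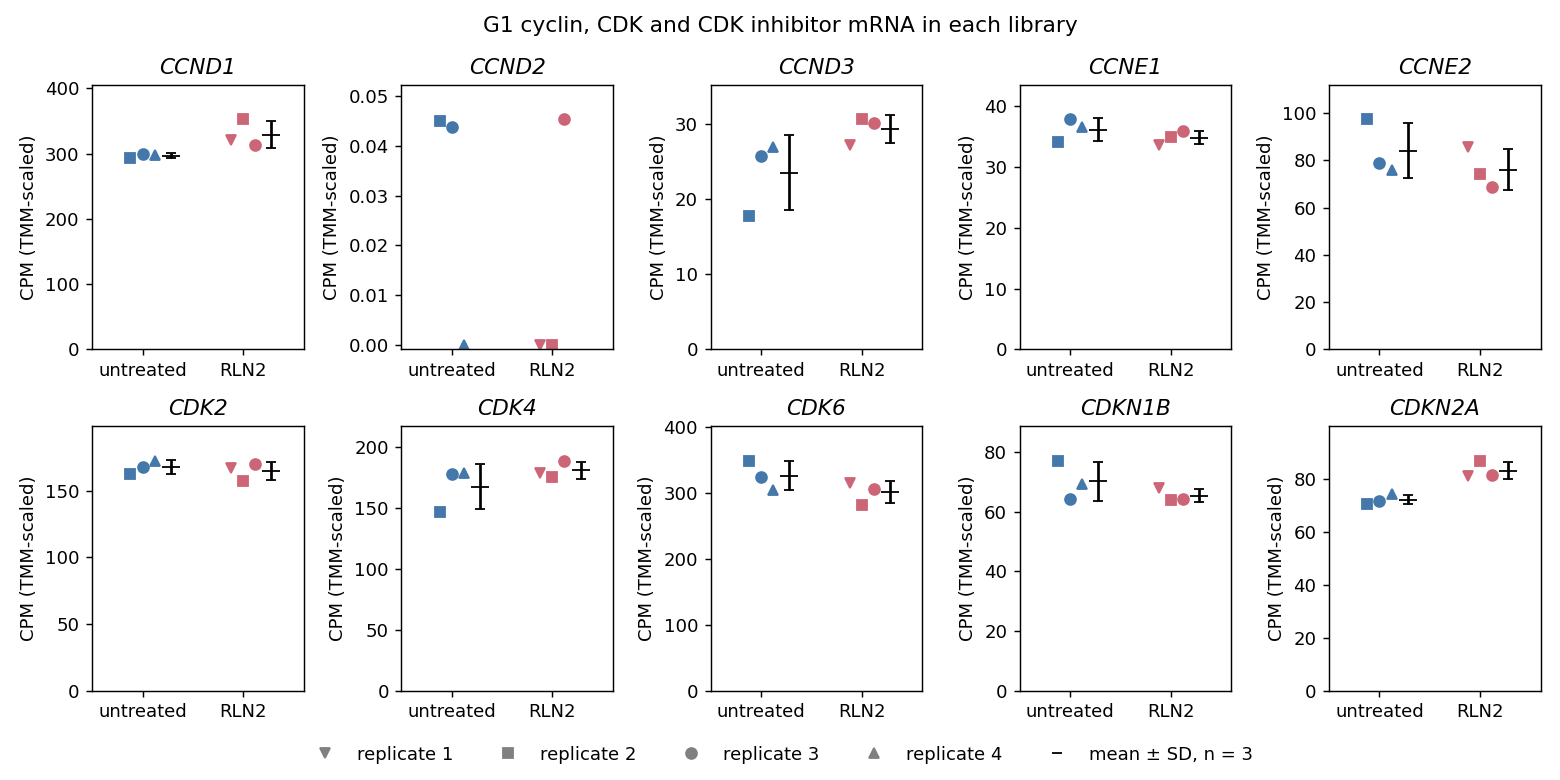
CPM (vertical axes, linear) of each gene in the 3 untreated (blue) and 3 relaxin-2 (red) libraries, with the symbol giving the replicate number and black bars the mean ± SD (n = 3). No bar is drawn for CCND2, whose points stand for 1 read or none, and untreated replicate 2 (square) is the lowest library for CCND3 at 17.8 CPM and for CDK4 at 146 CPM.

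Cyclin D1 was the main D-type cyclin. CCND1 (ENSG00000110092, chromosome 11, 69641087 to 69654474, GRCh38) encodes the cyclin that couples growth signals to CDK4 and CDK6. It had 293, 300.0 and 298 CPM in untreated replicates 2, 3 and 4, and 320.4, 353 and 314 CPM in relaxin-2 replicates 1, 2 and 3. The 3 relaxin-2 libraries all lay above the 3 untreated ones, with relaxin-2 replicate 2 the highest. The group means were 297 ± 3.44 and 329 ± 20.7 CPM (SD, n = 3 each), and the fitted log2 fold change was 0.15 ± 0.07 (SE), with a 95% interval from -0.0070 to 0.30 and an edgeR adjusted p of 0.408. Leaving out relaxin-2 replicate 2 gave 0.096, and leaving out both libraries numbered 2 gave 0.094. The sign of this difference depended on the processing, as it was -0.40 ± 0.17 once each library's trend on transcript GC content and length was removed.

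CCND3 (ENSG00000112576, chromosome 6, 41934933 to 42050357), which encodes cyclin D3, was far less abundant. It had 17.8, 25.8 and 26.98 CPM in the untreated libraries and 27.3, 30.7 and 30.2 CPM after relaxin-2. The groups did not overlap, but untreated replicate 2 lay well below all others, and untreated replicate 4 came close to relaxin-2 replicate 1. Its fitted log2 fold change of 0.32 ± 0.16 was the largest of the 9 genes, with a 95% interval from -0.05 to 0.69 and an edgeR adjusted p of 0.408. Without untreated replicate 2 the value was 0.15, whereas the offsets for GC content and length turned it to -0.047.

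CCND2 (ENSG00000118971, chromosome 12, 4273772 to 4305350), the third D-type cyclin, was close to absent. It had 1 read each in untreated replicates 2 and 3 and in relaxin-2 replicate 3, and 0 in the other 3 libraries. Its 3 reads over all libraries amount to 0.0264 CPM, with an exact 95% Poisson interval from 0.00544 to 0.0772 CPM that covers counting error only. A second annotated gene shares 989 bases of its exons on the same strand, and reads that fall there are left out of the counts, so the value is a lower estimate. CCND2 did not pass the filter on low counts, and a difference was not detectable with so few reads.

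The E-type cyclins were both expressed. CCNE1 (ENSG00000105173, chromosome 19, 29811898 to 29824308), cyclin E1, had 34.1, 37.9 and 36.7 CPM untreated and 33.7, 34.9 and 35.9 CPM after relaxin-2. The libraries of both groups were interleaved in a narrow range, and the log2 fold change was -0.05 ± 0.09 (95% interval -0.26 to 0.15, edgeR adjusted p = 0.732), with -0.097 without untreated replicate 2 and -0.022 without untreated replicate 3. CCNE2 (ENSG00000175305, chromosome 8, 94879770 to 94896678), cyclin E2, had 97.3, 78.8 and 75.9 CPM untreated and 85.5, 74.1 and 68.8 CPM after relaxin-2. The highest value was in untreated replicate 2, and the groups overlapped. Its log2 fold change was -0.14 ± 0.12 (95% interval -0.42 to 0.14, edgeR adjusted p = 0.522), which became -0.02 without untreated replicate 2 and 0.029 with the offsets. Leaving out relaxin-2 replicate 1 gave -0.24, and leaving out relaxin-2 replicate 3 gave -0.07.

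CDK4 and CDK6, the partners of the D-type cyclins, were both abundant. CDK4 (ENSG00000135446, chromosome 12, 57747727 to 57756013) had 146, 178 and 179 CPM untreated and 178, 176 and 189 CPM after relaxin-2. Apart from the low untreated replicate 2 the libraries were alike in level, and the groups overlapped. Its log2 fold change was 0.11 ± 0.09 (95% interval -0.10 to 0.32, edgeR adjusted p = 0.505), 0.02 without untreated replicate 2 and -0.13 with the offsets. On unstranded counts it was 0.23; 1369 bases of CDK4 exon are shared with TSPAN31 on the opposite strand.

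CDK6 (ENSG00000105810, chromosome 7, 92604921 to 92836594) had 348, 324 and 304 CPM untreated and 315, 282 and 306 CPM after relaxin-2. Its highest library was untreated replicate 2 and its lowest relaxin-2 replicate 2, with the other 4 between them. The log2 fold change was -0.11 ± 0.08 (95% interval -0.29 to 0.06, edgeR adjusted p = 0.446), -0.06 without untreated replicate 2 and -0.20 ± 0.09 with the offsets. When relaxin-2 replicate 2 was left out it was -0.07. CDK2 (ENSG00000123374, chromosome 12, 55966769 to 55972784), the partner of cyclin E, had the smallest difference of the tested genes in the edgeR fit with TMM scaling. It had 163, 168 and 173 CPM untreated and 167, 158 and 169.8 CPM with relaxin-2. Its log2 fold change was -0.03 ± 0.06, with a 95% interval from -0.17 to 0.12 (edgeR adjusted p = 0.833). With the offsets the CDK2 value was -0.07, and it was no longer the smallest.

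Of the inhibitors, CDKN1B (ENSG00000111276, chromosome 12, 12715058 to 12722371), which encodes p27, had 77.2, 64.2 and 69.5 CPM untreated and 67.9, 63.9 and 64.4 CPM after relaxin-2. The groups overlapped, with untreated replicate 2 the highest library. The log2 fold change was -0.10 ± 0.09 (95% interval -0.30 to 0.10, edgeR adjusted p = 0.519), -0.03 without untreated replicate 2, -0.17 without untreated replicate 3 and -0.00017 with the offsets.

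CDKN2A (ENSG00000147889, chromosome 9, 21967753 to 21995301) was expressed in every library. It had 70.5, 71.8 and 74.1 CPM untreated and 81.2, 86.9 and 81.3 CPM after relaxin-2. The 2 groups were separated by a gap wider than the spread within the untreated group. The means were 72.1 ± 1.80 and 83.1 ± 3.22 CPM (SD, n = 3 each). Its log2 fold change was 0.20 ± 0.07 (95% interval 0.05 to 0.36), the only one of the 9 whose interval excluded 0, and its edgeR adjusted p of 0.408 did not pass. Without any single library the value stayed between 0.17 and 0.22, but its interval did not always exclude 0. The interval ran from -0.02 to 0.37 without relaxin-2 replicate 2 and from -0.00092 to 0.40 without untreated replicate 3. With a replicate block it ran from -0.10 to 0.57. Under the offsets the CDKN2A value was -0.27 ± 0.16, on the other side of 0.

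CCND1, CCND3 and CDKN2A were the 3 of the 9 tested genes whose groups did not overlap, all with the relaxin-2 libraries on the higher side. Over all genes tested the groups did not overlap in 21.4%, with relaxin-2 higher in 10.8% and lower in 10.5%.

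**Figure D2:**
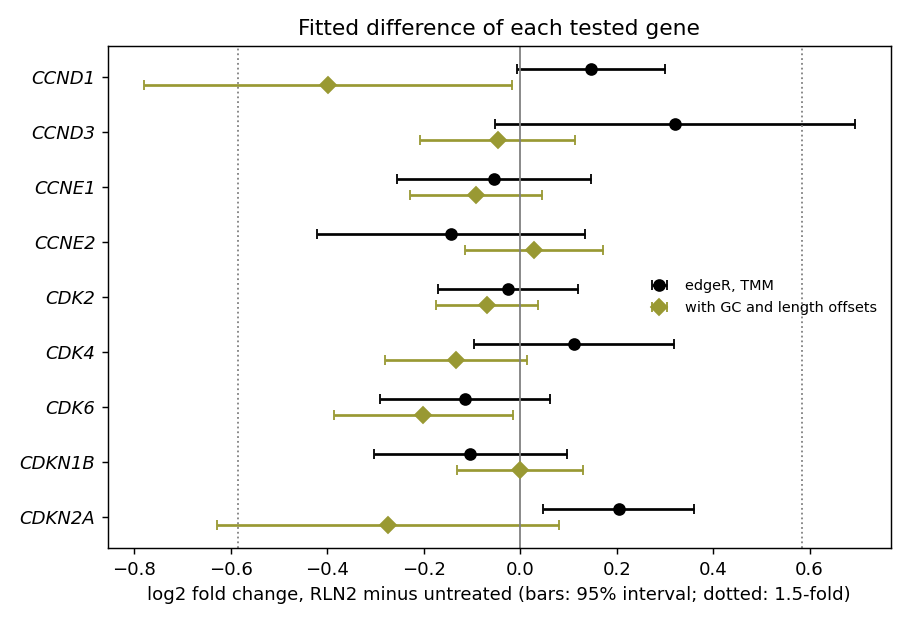
Log2 fold change (horizontal axis, relaxin-2 minus untreated) of the 9 tested genes, with 95% intervals, in the edgeR fit with TMM scaling (black circles) and with offsets for transcript GC content and length (olive diamonds). Dotted lines mark 1.5-fold; CCND1 lies at 0.15 in one fit and -0.40 in the other, and CCND3, CCNE2, CDK4 and CDKN2A also change sign.

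The fitted difference rose with GC content over the transcriptome, and the tested genes of the G1 set were placed beside that relation. Over all genes tested the median log2 fold change was -0.18 where the transcripts averaged under 40% GC, -0.14 at 40 to 45%, -0.06 at 45 to 50%, 0.07 at 50 to 55%, 0.29 at 55 to 60% and 0.53 at 60% or more. In the last group 95.8% of the 2101 genes had a fitted value above 0. The 4 genes of the G1 set with values above 0 were the 4 with the highest GC content: CCND1 (61.9%), CDKN2A (60.8%), CCND3 (59.5%) and CDK4 (56.4%). The other 5, from CDK6 (52.1%) down to CCNE2 (39.9%), had values below 0. CCND1, CDKN2A and CDK4 lay under the median of genes in the same GC range, and CCND3 lay close to it. CDK6, CDK2 and CCNE1 fall in the 50 to 55% range and had values below 0, on the other side of 0 from that range's median of 0.07.

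The libraries numbered 2 deviated the most along this relation. The median log2 deviation of genes with 60% GC or more was -0.80 in untreated replicate 2 and 0.43 in relaxin-2 replicate 2, against -0.04 to 0.31 in the other 4 libraries. In untreated replicate 2 CCND3 deviated by -0.55, CDK4 by -0.25, CDKN1B by 0.19 and CCNE2 by 0.29, whereas CCND1 (-0.09) and CDKN2A (-0.13) deviated much less than genes of like GC content. In the offset fit the 95% interval lay within 1.5-fold for 7 of the 9 genes, with no share over all genes worked out beside it. The 2 exceptions were CCND1 (-0.78 to -0.02) and CDKN2A (-0.63 to 0.08), whose standard errors were larger with the offsets than without. That fit called 0 of the 9 genes, with adjusted p-values of 0.466 for CCND1 and 0.463 for CDK6 (interval -0.39 to -0.01) in edgeR. What part GC content has in each difference was not tested beyond these values.

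**Figure D3:**
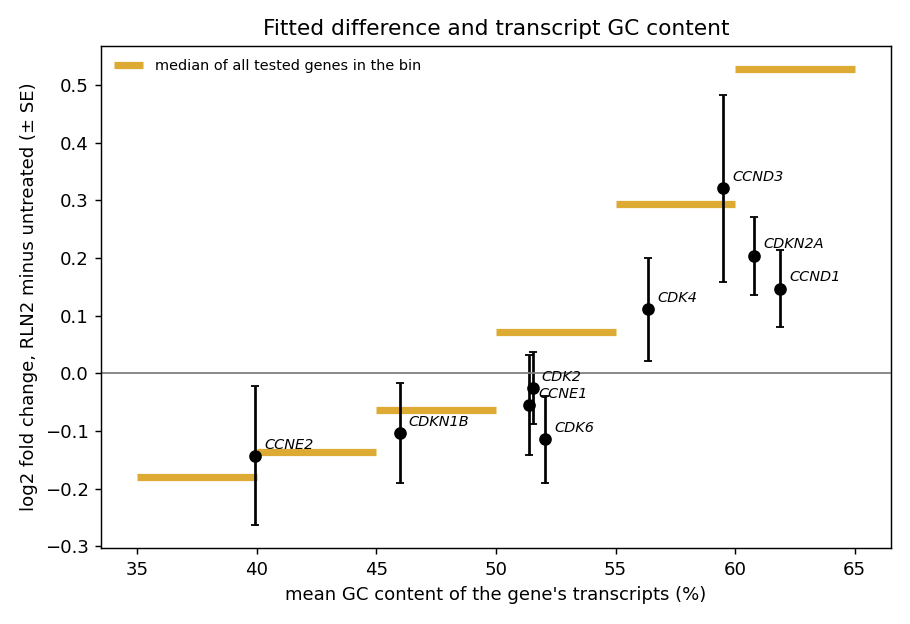
Log2 fold change (vertical axis, ± SE) of the 9 tested genes against the mean GC content of their GENCODE transcripts (horizontal axis, %), with gold bars at the median of all tested genes in each GC range; the outermost bars stand for under 40% and for 60% and over. The gold medians climb from -0.18 to 0.53, and the 9 genes run from CCNE2 at -0.14 to CCND3 at 0.32.

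Levels can be compared between genes only per length, and here counts per kilobase of annotated exon, after CPM scaling, were used, averaged over all 6 libraries. In descending order the levels were 64.8 for CCND1, 55.0 for CDK4, 42.7 for CDK2, 25.6 for CDK6, 24.1 for CDKN1B, 18.2 for CCNE2, 17.9 for CDKN2A, 13.9 for CCNE1 and 4.56 for CCND3, with CCND2 near 0. CDK6 and CDKN1B overlapped in range over the libraries, as did CCNE2 and CDKN2A, and the other neighbours did not. The order depends on the length used. Divided by the longest annotated transcript in place of all exons, CDK4 (83.9) came before CCND1 (72.7) with overlapping ranges, and CDKN2A, at 60.5, moved up to rank 4, next to CDK2 at 64.0.

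**Figure D4:**
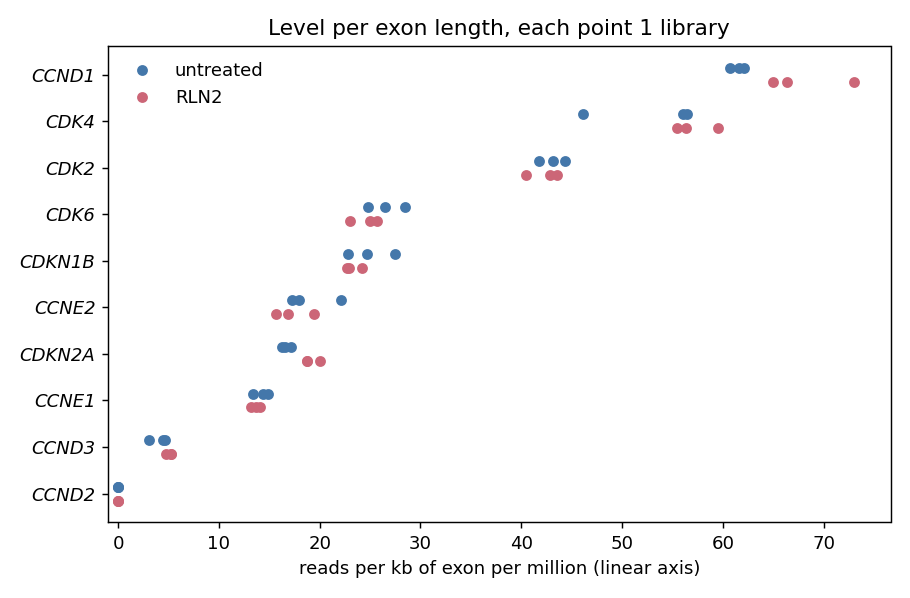
Level of each gene in CPM per kilobase of exon (horizontal axis, linear), 1 point per library, untreated in blue and relaxin-2 in red, ordered by the mean over all 6 libraries. CCND1 is at the top, with a mean of 64.8, and CCND2 lies at 0.

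The balance between related genes was compared within each library, where library size cancels, and the 4 comparisons were adjusted together. CCND1 made up 95.2%, 93.3% and 93.0% of the D-type cyclin level in untreated replicates 2, 3 and 4 and 93.4%, 93.2% and 92.6% in relaxin-2 replicates 1, 2 and 3. D-type cyclin mRNA in these cells was thus nearly all CCND1, in both groups, and the share differed by -0.756 percentage points (exact two-sided permutation test, p = 0.5, adjusted p = 0.667). That difference was -0.078 points without untreated replicate 2 and -1.17 points without untreated replicate 4. By longest transcript the share was 87.6% untreated and 86.1% after relaxin-2.

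CDK6 made up 38.1%, 32.1% and 30.6% of the CDK4 plus CDK6 level in the untreated libraries and 31.3%, 29.3% and 29.5% after relaxin-2. CDK4 was thus the larger part in every library, and the groups overlapped (difference -3.52 points, exact permutation p = 0.2, adjusted p = 0.4), with -1.26 points left without untreated replicate 2. On unstranded counts the difference was -6.13 points. CCNE1 made up 37.7%, 45.3% and 45.5% of the E-type cyclin level untreated and 40.5%, 44.9% and 47.4% after relaxin-2 (difference 1.43 points, exact permutation p = 0.7, adjusted p = 0.7), so neither E-type cyclin dominated.

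The p27 message was set against that of cyclin D1, as an inhibitor and an activator of passage through G1. CDKN1B made up 31.1%, 26.9% and 28.6% of the CDKN1B plus CCND1 level untreated and 26.7%, 23.7% and 26.1% after relaxin-2. Here the 3 relaxin-2 libraries all lay below the 3 untreated ones, with untreated replicate 3 and relaxin-2 replicate 1 close together. The means were 28.9% ± 2.13 and 25.5% ± 1.56 (SD, n = 3 each), a difference of -3.38 points, with an exact two-sided permutation p of 0.1 and an adjusted p of 0.4. With 3 libraries a group, 0.1 is the smallest p this test allows. Without untreated replicate 2 the difference was -2.26 points. The 2 genes differ in GC content, 46.0% for CDKN1B and 61.9% for CCND1, and this share carries no correction for it. With the offsets the log2 fold change was -0.00017 for CDKN1B and -0.40 for CCND1, which goes with a higher share, not a lower one. The direction of this difference thus depends on the processing, and the share itself was not computed with the offsets.

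**Figure D5:**
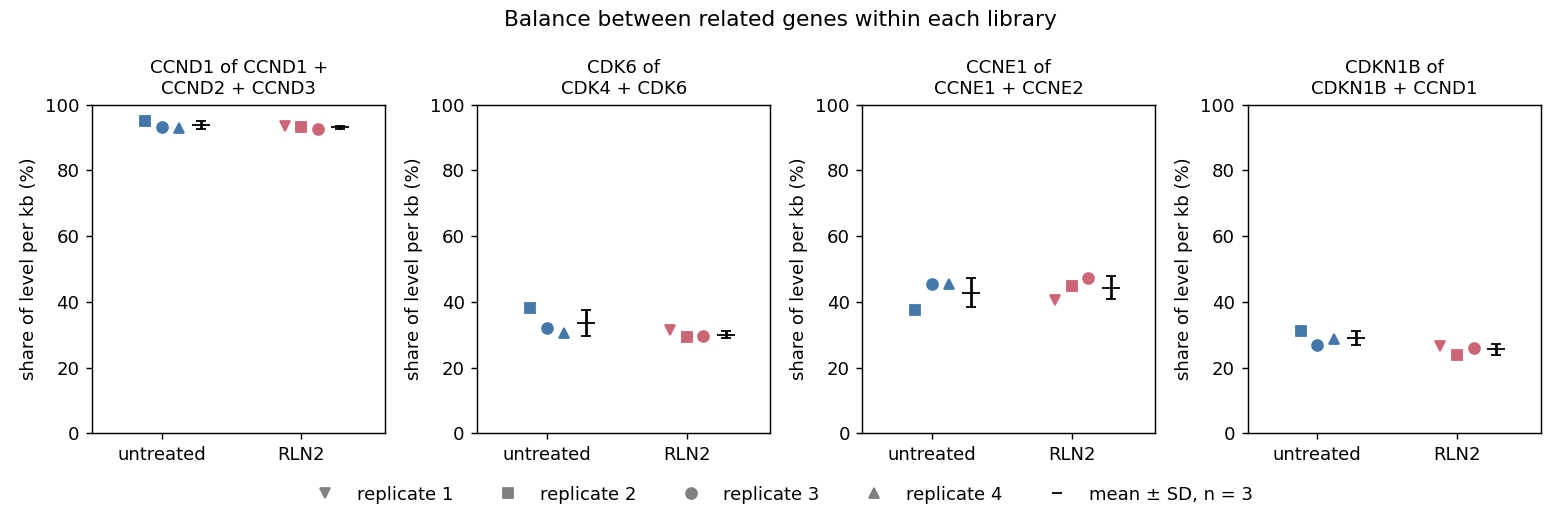
Share (vertical axes, % of the level per kilobase, from 0 to 100) of 1 gene in the summed level of related genes in each library, untreated in blue and relaxin-2 in red, with symbols for replicate numbers and black bars for the mean ± SD (n = 3). CCND1 holds at least 92.6% of the D-type cyclin level in every library, and the CDKN1B share is 28.9% untreated and 25.5% after relaxin-2 on average.

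CDKN2A had the smallest p of the set, and the abundant protein-coding genes whose pattern over the 6 libraries was most like it were SEC14L1 (Pearson r = 0.993), PRMT5 (0.992) and HSPA1B (0.990). These are descriptions over 6 libraries that all genes share, and 91 of 5890 candidate genes had an r over 0.9.

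The genes around this machinery were examined as 6 lists holding 55 genes, all with enough reads to be tested. Of these, 25 had a fitted value above 0 and 30 below 0, 0 passed the edgeR test, 9 had an unadjusted p under 0.05, and the median log2 fold change was -0.03. The groups did not overlap in 15 of the 55. Over all genes tested, 10.8% had an unadjusted p under 0.05 and 21.4% had groups that did not overlap.

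The targets of the G1 kinases came first. Of 13 retinoblastoma family and E2F genes 6 had values above 0 and 7 below, with a median of -0.02 (0.030 with the offsets) and 0 passing. RB1, the retinoblastoma protein that CDK4 and CDK2 phosphorylate, had 36.9 ± 2.99 CPM in untreated cells and 31.0 ± 1.26 CPM in the relaxin-2 group (SD, n = 3 each), with a log2 fold change of -0.25 ± 0.10. TFDP1, the partner that E2F factors need to bind DNA, had 0.20 ± 0.08. Both had an edgeR adjusted p of 0.408, and with the offsets they were -0.11 and 0.02.

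The other CDK inhibitors were low to moderate in abundance. CDKN1A (p21) had 27.3 ± 5.82 CPM in untreated cells and 32.6 ± 2.06 CPM with relaxin-2, and CDKN2B (p15), the neighbour of CDKN2A on chromosome 9, had 27.6 ± 1.95 and 26.6 ± 1.19 CPM (SD, n = 3 each). Their log2 fold changes were 0.26 ± 0.16 and -0.05 ± 0.10. CDKN1C (p57) had 0.34 ± 0.25, CDKN2C (p18) 0.08 ± 0.12 and CDKN2D (p19) 0.44 ± 0.18. Thus 4 of the 5 had values above 0 and 0 passed, but with the offsets CDKN1A (-0.14), CDKN1C (-0.19), CDKN2C (-0.037) and CDKN2B (-0.37) lay below 0 and the list's median went from 0.26 to -0.14.

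The CDK-activating kinase phosphorylates the G1 kinases and consists of CDK7, CCNH and MNAT1. All 3 subunits had values below 0, with -0.14 ± 0.12 for CDK7, -0.14 ± 0.07 for CCNH and -0.22 ± 0.09 for MNAT1, and 0 passed, while CCNH was at 0.029 with the offsets. The list's median went from -0.14 to -0.0049 with them. Among 9 genes for the turnover of cyclin D, cyclin E and p27, 2 had values above 0 and 7 below, with a median of -0.05 (0.047 with the offsets) and 0 passing. SKP1, a core subunit of the ubiquitin ligase for p27 and cyclin E, had -0.17 ± 0.09, and FBXO31, an F-box protein for cyclin D1, had 0.36 ± 0.22, values that became -0.0095 and 0.06 under the offsets.

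Genes that act after the G1 step gave mixed values. The later cyclins and CDK1 all lay below 0: CCNA1 at -0.31 ± 0.20, CCNA2 at -0.15 ± 0.10, CCNB1 at -0.13 ± 0.06, CCNB2 at -0.06 ± 0.06 and CDK1 at -0.20 ± 0.09, though with the offsets CCNB2 (0.054) and CDK1 (0.0016) lay above it. Of the 5, 0 passed, and their median of -0.15 was -0.0065 with the offsets. CDK1 stood at 234 ± 26.4 CPM in untreated cells and 204 ± 11.6 CPM with relaxin-2 (SD, n = 3 each). Its transcripts were thus plentiful in both groups after serum withdrawal, with no library from before it to set them against. Of 20 E2F-driven genes of S phase 13 had values above 0 and 7 below, with a median of 0.09 and 0 passing. UHRF1, a reader of hemimethylated DNA, had 0.42 ± 0.11 and PCNA, the sliding clamp of DNA polymerase, -0.14 ± 0.07, and with the offsets these were 0.07 and -0.02.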

How the data were processed

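Total RNA was sequenced from 6 libraries of a stranded kit, per the labels' protocols. The authors deposited raw read counts per gene from STAR on hg38, per the submitters' processing notes; the version of STAR and the annotation are not stated in those notes or the labels. The reverse-strand column was used, which held 17.8 to 19.8 times the reads of the forward column. The 24635 gene IDs that the merged table shares with it had equal counts. Lines of unassigned reads were left out of library sizes and tests. They held 6.73% to 17.4% (unmapped), 5.31% to 26.96% (multimapping), 17.5% to 32.0% (no feature) and 2.36% to 4.18% (ambiguous) of reads.

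Genes passing edgeR's default filter were scaled by TMM and tested with the quasi-likelihood F test of edgeR 4.0.16 (R 4.3.3, limma 3.58.1), with treatment as the only term and Benjamini-Hochberg adjusted p under 0.05 over all genes tested. The SE is the log2 fold change over the root of F, and intervals use the moderated degrees of freedom. Offsets took out each library's natural spline trend (4 degrees of freedom each) on GC content and log length of GENCODE 29 transcripts (GRCh38). Shares were tested by exact permutation over 20 assignments. Alternatives were DESeq2 1.42.0, limma-voom, other scalings, filters, strands and tables, fewer features, a replicate block and leaving out libraries. The test was tested on simulated counts. Tables and figures used Python 3.11.15, pandas 2.3.3 and matplotlib 3.10.9.

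The genes, lists and tests were chosen with earlier results of these data known. Named beyond the set were, for lists over 5 genes, the smallest p in each direction, all genes of shorter lists, and the 3 abundant protein-coding genes (average log2 CPM of 5 or more) with the highest Pearson correlation to the member of smallest p. The histones without poly(A) tails, mitochondrially encoded genes and small RNAs, listed as signs of RNA selection, had medians of 0.45, 0.27 and 0.65, the last from RN7SL2, as RN7SK and RN7SL1 had 0 reads.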

Additional observations from a re-analysis of the deposited data

Results flagged for a closer look

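Reads on the strand opposite to CDKN1B, which enter none of the comparisons above, were few in every library: 8, 7 and 6 reads in untreated replicates 2, 3 and 4, and 11, 7 and 10 reads in relaxin-2 replicates 1, 2 and 3. On the CPM scale they came to 0.338 ± 0.027 untreated and 0.559 ± 0.090 after relaxin-2 (SD, n = 3 each), and they are listed here because the lowest relaxin-2 library, at 0.455 CPM, lay above the highest untreated one, at 0.360 CPM. Of the 10 genes this was the only one with that pattern on its opposite strand. How often genes at large show it on that strand was not worked out, so it is given as a description only. The SDs above are not a measure of counting error, which is large at 6 to 11 reads. Untreated replicate 3 and relaxin-2 replicate 2 had the same 7 reads, and the latter library has the fewest reads assigned to genes.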

How the results depend on the processing

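Under all 19 alternatives 0 of the 9 tested genes passed (their smallest adjusted p ran from 0.236 to 0.766). The count over all genes was 120 without a filter on low counts, 1 with the replicate block, 3 without both libraries numbered 2 (an alternative chosen after seeing the data) and 0 to 3 when single libraries were left out (3 without untreated replicate 2). With the GC content and length offsets the log2 fold changes of CCND1 (-0.40 ± 0.17), CDK4 (-0.13 ± 0.07) and CDKN2A (-0.27 ± 0.16) turned sign. Those of CCND3 (-0.047 ± 0.073) and CCNE2 (0.029 ± 0.066) did too, but lay closer to 0 than their SE. Without both libraries numbered 2 the CCNE2 value also turned sign, at 0.00099 ± 0.093, and was close to 0. The cause of these sign changes was not tested. CDK2 ran from -0.048 to 0.0071 when single libraries were left out, and the difference in the CCNE1 share from -1.14 to 3.31 points. The replicate block, over the only 2 shared numbers, gave CCND3 0.50, CCNE2 -0.29 and CDK6 -0.19 and called 0 of the 9. No label ties the numbers to a batch, and deviations of same-numbered libraries correlated at -0.53 (number 2) and 0.55 (number 3), so the numbers were not taken as pairs. Depth limits CCND2 most.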

Other observations

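Reads on the opposite strand were most frequent at CCNE2 and CDK4 among the 9 tested genes. Reads opposite to CCNE2 made up 10.7% of all reads on its exons, 9.76 ± 1.16 CPM untreated and 9.41 ± 0.800 CPM after relaxin-2 (SD, n = 3 each), and 1629 bases of its exons are shared with INTS8, a subunit of the Integrator complex, on that strand. At CDK4 the share was 3.42%, with 5.97 ± 0.734 CPM untreated and 6.21 ± 0.533 CPM after relaxin-2. At CCND1, CCNE1, CDK2 and CDK6 it was 0.111% to 0.299%.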
